A study of Gallus gallus with 2 samples.

Results

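Solute carriers are membrane proteins that move sugars, amino acids, ions, metals, nucleotides and metabolic acids into and out of cells and organelles. Their genes were followed here in early chick embryos, with 1 array for heart forming regions (HFR) and 1 array for the posterior primitive streak (PPP). These genes were chosen by name: every probe set whose single annotated symbol is SLC, a family number, a letter from A to F and a member number. This gave 619 probe sets for 269 genes in 47 families, out of 27168 probe sets and 13009 genes with a single symbol. A further 47 probe sets with an SLC symbol were not members, 43 because the symbol ended otherwise and 4 because several symbols were listed.

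Embryos of both groups spent about 12 h at 37.5 °C and received, by electroporation at HH3 (a stage with a growing primitive streak), a plasmid that carries EGFP behind a 2.5 kb Cerberus fragment. HFR pieces were cut where EGFP was seen, and PPP pieces were cut from the posterior streak, both at HH4 to HH4+, although the stage label reads HH4-5. The EGFP marks only cells that took up the plasmid, and the labels do not give the number of embryos behind each RNA. From each group, 45 ng of total RNA with poly-A control RNAs added was amplified in 2 rounds and hybridised to a GeneChip Chicken Genome array.

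The families differ in what drives them and where they sit. The facilitative hexose carriers of family SLC2 let glucose run down its gradient, while SLC5 and many amino acid carriers draw their substrate in with sodium that the sodium pump keeps low in the cell. SLC25 proteins sit mostly in the inner mitochondrial membrane and SLC35 proteins mostly in the Golgi and endoplasmic reticulum. SLC39 proteins bring zinc into the cytosol, and SLC30 proteins take it out. The endoderm below the gastrulating chick embryo, and the extraembryonic endoderm around it, face the yolk from which the embryo is fed.

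The unit of all levels is the model-based expression index (MBEI), a probe set intensity on a linear scale deposited by the authors, and each reading has a call of present, marginal or absent. Errors after ± are the authors' model standard errors within 1 array. With 1 array per group there is no replicate, no test and no p-value, and precision is limited by that number. A gene was represented by its probe set of highest mean log2 MBEI. It passed the level filter if the brighter of its 2 readings was present and reached 70.8 MBEI. A log2 difference is the HFR-labelled array minus the PPP-labelled array, and a fold of 2 or more in either direction was counted. A fold against a dimmer reading that was absent or marginal is a lower bound, written as at least. Probe sets differ in brightness, so no gene's level is set against another's, and sums over marker lists lean on their brightest probe sets.

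The labels were set against markers of both tissues. All 6 of the heart forming region markers listed (CER1, HHEX, NKX2-5, GATA5, ISL1 and HAND2) had log2 differences below 0. Their summed level was 3559.2 MBEI on the HFR-labelled array against 6534.1 on the PPP-labelled array. Of the 6, 4 were called present only on the PPP-labelled array. CER1 carried a wide model error there, at 420.2 ± 193.3 MBEI. Of the 6 posterior streak markers that passed, 5 lay above 0, with a sum over all 7 of 12533.7 against 6478.7 MBEI. Each array is therefore named by its label, and every direction given is between 2 arrays whose label markers, except WNT8A, lay opposite to those labels. Probe sets called present made up 38.4% of the HFR-labelled and 42.2% of the PPP-labelled array. The 36 probe sets for the added poly-A control RNAs all read lower on the HFR-labelled array, with a median log2 difference of -1.49. Setting them equal would add 1.49 to every log2 difference, so every direction below is relative to the authors' scale, on which the median of all genes was -0.05.

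Of the 269 solute carrier genes, 120 (44.6%) passed the level filter, against 56.8% of all genes. Of the 120, 12 (10%) were higher by 2-fold or more on the HFR-labelled array, where 3.86% of all passing genes were. In the other direction 5 (4.17%) were higher on the PPP-labelled array, where 4.25% of all passing genes were. Together 14.2% reached 2-fold in either direction, against 8.11% of all genes. The median log2 difference of the 120 genes was -0.02, and 56 lay above 0, 62 below and 2 at 0. So the middle of the transporter genes lay close to the middle of all genes, while the upper tail held a larger share. The interquartile range was 0.75 for the solute carriers and 0.59 for all genes. In pieces of tissue, fewer cells of a type and less RNA per cell cannot be told apart. On the same arrays, ABC transporters, the ATP-driven pumps used as another transporter family, had 1 of 13 passing genes (7.69%) at 2-fold or more. With only 13 genes, this share cannot be told apart from the 8.11% of all genes or the 14.2% of the solute carriers. The 1 ABC gene was the drug exporter ABCG2, at 205.6 ± 8.4 MBEI on the HFR-labelled array against 87.6 ± 3.8 on the PPP-labelled array. Of the 13 ABC genes, 10 lay above 0, with a median log2 difference of 0.21, where 3338 of all 7389 passing genes lay above 0.

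**Figure D1:**
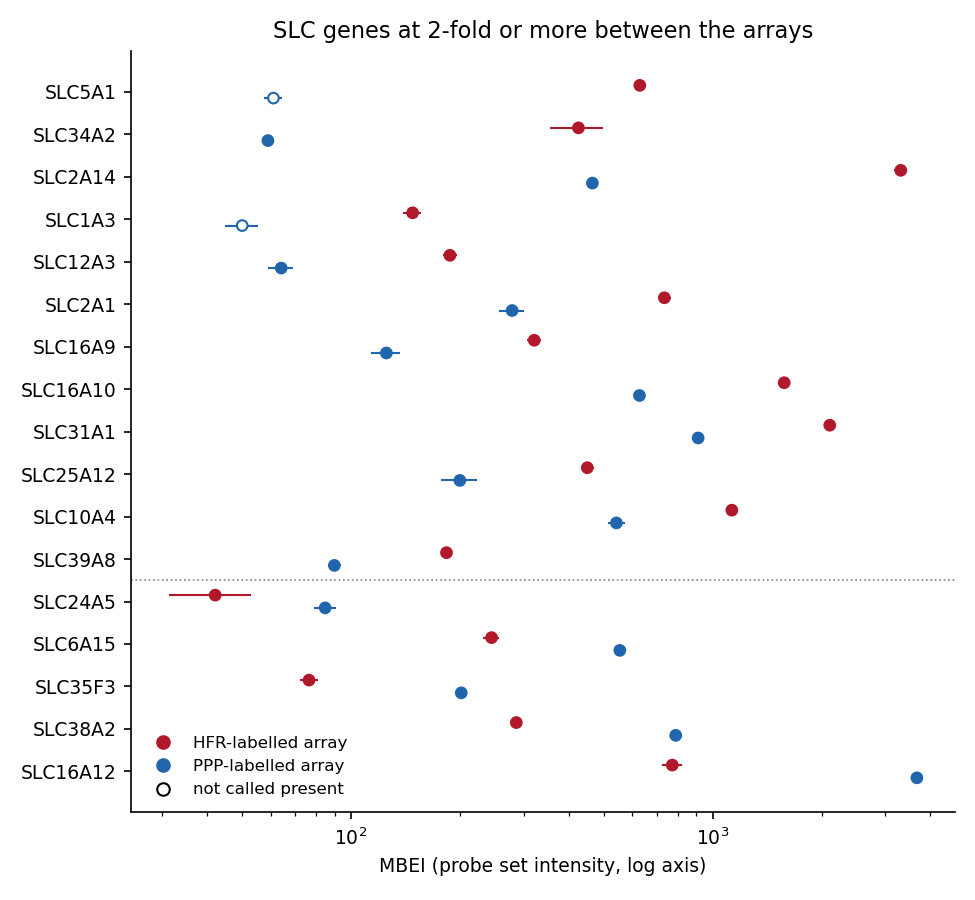
MBEI of the 17 solute carrier genes at 2-fold or more (log axis), with the HFR-labelled array in red above the PPP-labelled array in blue for each gene. Bars are model standard errors within an array, open circles were not called present, and the dotted line parts the 12 genes higher on the HFR-labelled array from the 5 higher on the PPP-labelled array.

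Most passing markers of 3 other tissue lists differed in the same direction as the 12 genes. In the extraembryonic and yolk sac endoderm list, 6 of 9 markers passed and 6 of these 6 lay above 0, 5 at 2-fold or more. The list summed to 9924.8 MBEI on the HFR-labelled array against 1888.8 on the PPP-labelled array, and APOB, RBP4 and AFP were called absent on both. The HFR-labelled values of TTR (1365 ± 511.7 MBEI) and RBP4A (1835.5 ± 405.9 MBEI) carried wide model errors. HNF4A, FGB and TTR passed the level filter only through their HFR-labelled readings, so the filter fixed their side of 0. In the epithelium list of 5, the 3 markers with a probe set under their single symbol, CDH1, EPCAM and CLDN1, were all at 2-fold or more. Their sums were 12238.2 and 2661.9 MBEI, and KRT18 and KRT8 had no probe set listed under a single symbol. Of the 5 neural and surface ectoderm markers 3 passed and 2 of these, SOX3 and DLX5, were at 2-fold or more, with sums of 3124.4 and 1487.6 MBEI over the list and SOX2 absent on both arrays. The third passing marker of that list, OTX2, lay in the other direction, at 225.2 against 415.5 MBEI, a log2 difference of -0.88. The part of these tissues in the transporter differences was not tested. In the other direction, the blood and endothelium list summed to 1239.7 MBEI on the HFR-labelled array against 3048.2 on the PPP-labelled array, with 3 of 4 passing markers at 2-fold and HBZ and LMO2 absent on both. TAL1, CDH5 and FLT1 passed the level filter only through their PPP-labelled readings, so the filter fixed their side of 0 too. The part of blood and endothelium in the 5 genes higher on the PPP-labelled array was not tested either.

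The hexose families held 3 of the 12 genes. SLC2 and SLC5 have 20 genes on the array, 5 of which passed, and 3 of the 5 were higher by 2-fold or more on the HFR-labelled array, with 0 in the opposite direction. SLC5A1, the sodium-driven glucose carrier SGLT1 of gut and kidney epithelium, read 628.7 ± 3.6 MBEI on the HFR-labelled array against 61.0 ± 3.5 on the PPP-labelled array, where it was absent, a fold of at least 10.3. Its second passing probe set gave the same picture, at 137.2 ± 2.2 and 16.9 ± 4.1 MBEI, a log2 difference of 3.02. Both probe sets passed the level filter only through their HFR-labelled readings. SLC2A14 is the chick gene for which RefSeq also lists the names GLUT3 and SLC2A3, a facilitative glucose carrier. It read 3312.5 ± 139.4 MBEI on the HFR-labelled array against 464.9 ± 4.8 on the PPP-labelled array, 7.13-fold higher.

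SLC2A1 (GLUT1), the widespread glucose carrier of embryonic cells, read 735.1 ± 31.3 MBEI on the HFR-labelled array against 278.9 ± 22.3 on the PPP-labelled array, 2.64-fold higher. The remaining genes of these families that passed lay on the other side of 0. The intracellular hexose carrier SLC2A8 had 330.9 ± 20.7 and 523.7 ± 12.3 MBEI, a log2 difference of -0.66. SLC2A13, a proton-driven inositol carrier, had 274.6 ± 15.1 and 322.6 ± 12.9 MBEI and a difference of -0.23. SLC2A2 (GLUT2), the glucose carrier of liver and yolk sac in mammals, was absent on both arrays at 51.8 ± 2.2 and 55.3 ± 1.8 MBEI. The glucose carriers at 2-fold were thus 2 facilitative carriers and 1 sodium-driven carrier. Of the 20 genes of SLC2 and SLC5, not all of which carry hexoses, 15 were not called present on either array with the probe set that stood for them. Among the 15, SLC2A10 had another probe set that passed, at 102.9 ± 5.2 and 89 ± 6.5 MBEI, a log2 difference of 0.21.

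Hexokinase HK1, which traps glucose inside the cell, differed in the same direction as the carriers, at 732.2 ± 41.5 MBEI on the HFR-labelled array against 241.8 ± 21.9 on the PPP-labelled array, 3.03-fold higher. HK2 read 161.7 ± 5.4 (absent) and 121.0 ± 4.7 MBEI and did not pass the filter. The sodium pump subunit ATP1B1 had a log2 difference of 0.85 and ATP1B3 of -0.09.

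**Figure D2:**
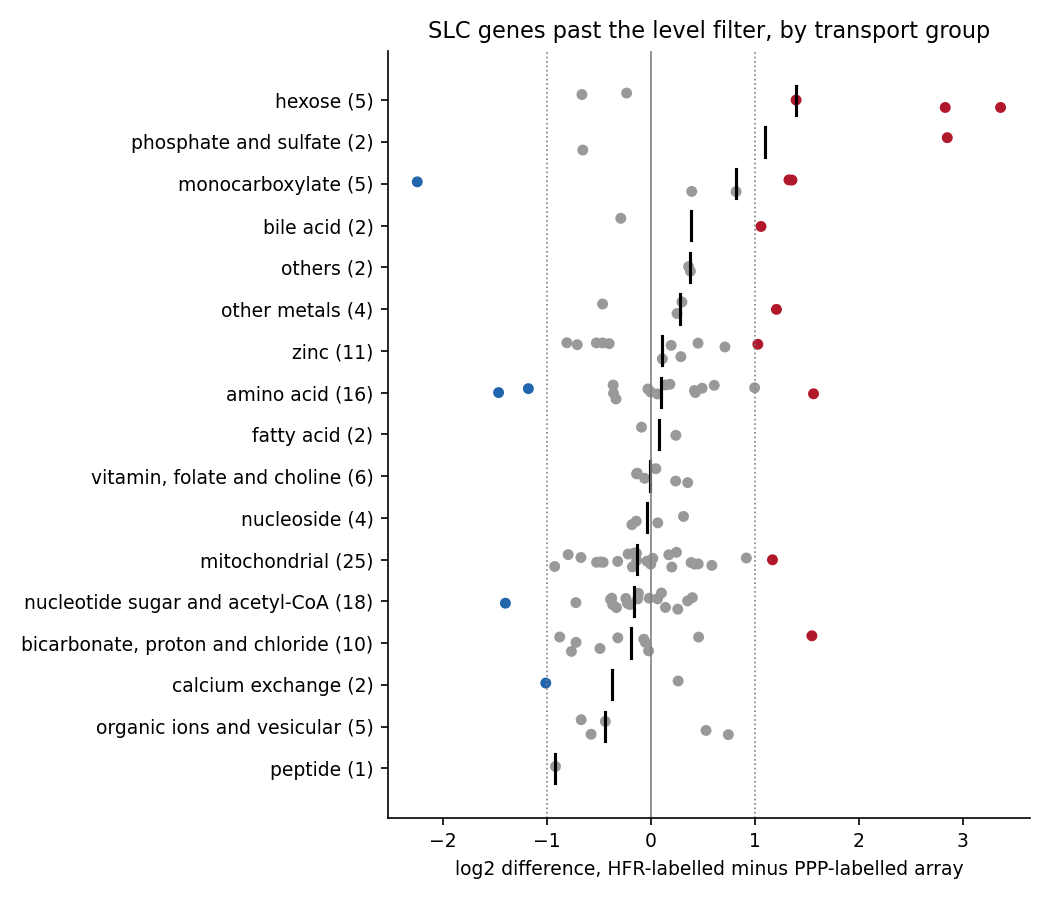
Log2 difference of each of the 120 solute carrier genes past the level filter, by transport group, with the number of genes in brackets. Points at 2-fold or more are red (higher on the HFR-labelled array) or blue (higher on the PPP-labelled array), black bars are group medians, and the dotted lines mark 2-fold. The hexose group, all of SLC2 and SLC5, has the highest median, 1.40, over 5 genes that run between -0.66 and 3.37.

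Monocarboxylate carriers of family SLC16 went both ways. Of 12 genes 5 passed, 2 of them higher by 2-fold or more on the HFR-labelled array against 1 on the PPP-labelled array. The shares of all passing genes were 3.86% and 4.25%. SLC16A10, a carrier of aromatic amino acids and thyroid hormone, read 1576.7 ± 18.3 MBEI on the HFR-labelled array against 627.3 ± 12.0 on the PPP-labelled array, 2.51-fold higher. Its 5 passing probe sets all lay above 0, between 0.75 and 1.33. SLC16A9 was 2.56-fold higher, at 321.0 ± 14.9 against 125.2 ± 11.4 MBEI. SLC16A12, a creatine carrier in mammals, showed the largest difference toward the PPP-labelled array of the 120 genes, 773.2 ± 48.9 MBEI on the HFR-labelled array against 3669.9 ± 10.3 on the PPP-labelled array, 4.75-fold higher on the array labelled PPP.

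The lactate and pyruvate carriers of the family stayed under 2-fold. SLC16A3 (MCT4) had 575.1 ± 19.8 MBEI on the HFR-labelled and 325.7 ± 14 on the PPP-labelled array, a log2 difference of 0.82. SLC16A1 (MCT1) had 2188.6 ± 91.1 and 1665.8 ± 80.8 MBEI and a difference of 0.39. These carriers need a small chaperone in the plasma membrane. The chaperone embigin (EMB) was 3.78-fold higher, at 1686.7 ± 32.3 MBEI on the HFR-labelled array against 446.3 ± 16.1 on the PPP-labelled array, while basigin (BSG) read 4012.9 ± 128.6 and 3766.0 ± 94.7 MBEI and neuroplastin (NPTN) had a log2 difference of -0.09.

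Amino acid carriers divided by member. Of 45 genes in families SLC1, SLC3, SLC6, SLC7, SLC36, SLC38 and SLC43, 16 passed, 1 of them higher by 2-fold on the HFR-labelled array against 2 on the PPP-labelled array. The shares of all passing genes were 3.86% and 4.25%. SLC1A3, a sodium-driven glutamate and aspartate carrier known from glia, read 148.0 ± 8.4 MBEI on the HFR-labelled array against 50 ± 5.3 (absent) on the PPP-labelled array, a fold of at least 2.96. Its other probe set was present on both arrays, at 94.4 ± 1.0 and 18.5 ± 1.7 MBEI, a log2 difference of 2.35. All 4 passing SLC1 genes lay above 0, where 3338 of all 7389 passing genes did. SLC1A1, SLC1A2 and SLC1A3 passed the level filter only through their HFR-labelled readings, so the filter fixed their side of 0. Only SLC1A4 could have lain on either side, so the count of 4 cannot be weighed against that of all genes. The 4 differences lay between 0.14 and 1.57, 2 of them as lower bounds. For 3 of the 4 the difference exceeded 2 model standard errors. No scaling tried lowered these differences enough to change a sign, so their sign under scaling carries no further information. SLC1A4, a carrier of alanine, serine and cysteine, had 769.8 ± 8.2 and 575.2 ± 15 MBEI, a difference of 0.42.

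SLC38A2 (SNAT2), a sodium-driven carrier of small neutral amino acids, read 286.4 ± 5.7 MBEI on the HFR-labelled array against 790.3 ± 15.1 on the PPP-labelled array, 2.76-fold higher on the array labelled PPP. The related SLC38A1 (SNAT1) had 2234.1 ± 102.8 and 2864.8 ± 46.4 MBEI and a log2 difference of -0.36, and SLC38A10 had 2095.1 ± 51.7 and 1487.8 ± 21.9 MBEI and a difference of 0.49. The neutral amino acid carrier SLC6A15, best known from brain, read 244.7 ± 12.5 MBEI on the HFR-labelled array against 553.6 ± 20.6 on the PPP-labelled array, 2.26-fold higher on the array labelled PPP. Its second passing probe set stood at -0.12, so the median over its probe sets was -0.65.

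SLC7A5 (LAT1), the exchanger that brings in leucine and other large neutral amino acids, had 859.3 ± 18.3 MBEI on the HFR-labelled array against 562.8 ± 24.3 on the PPP-labelled array, a log2 difference of 0.61. Among the other SLC7 genes, the cationic amino acid carrier SLC7A3 had 1278.4 ± 35.1 and 1303.0 ± 36.2 MBEI, and SLC7A6 had a difference of -0.34. The cystine exchanger SLC7A11 was absent on both arrays, at 96.5 ± 3.1 and 75 ± 2.9 MBEI. SLC43A2, a facilitative carrier of large neutral amino acids, lay just under the threshold, at 603.9 ± 8.3 and 302.1 ± 9.1 MBEI. ATF4, a transcription factor that turns on amino acid carrier genes when amino acids are short, read 1616.6 ± 57.5 MBEI on the HFR-labelled array against 2605.0 ± 77.3 on the PPP-labelled array, a log2 difference of -0.69.

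**Figure D3:**
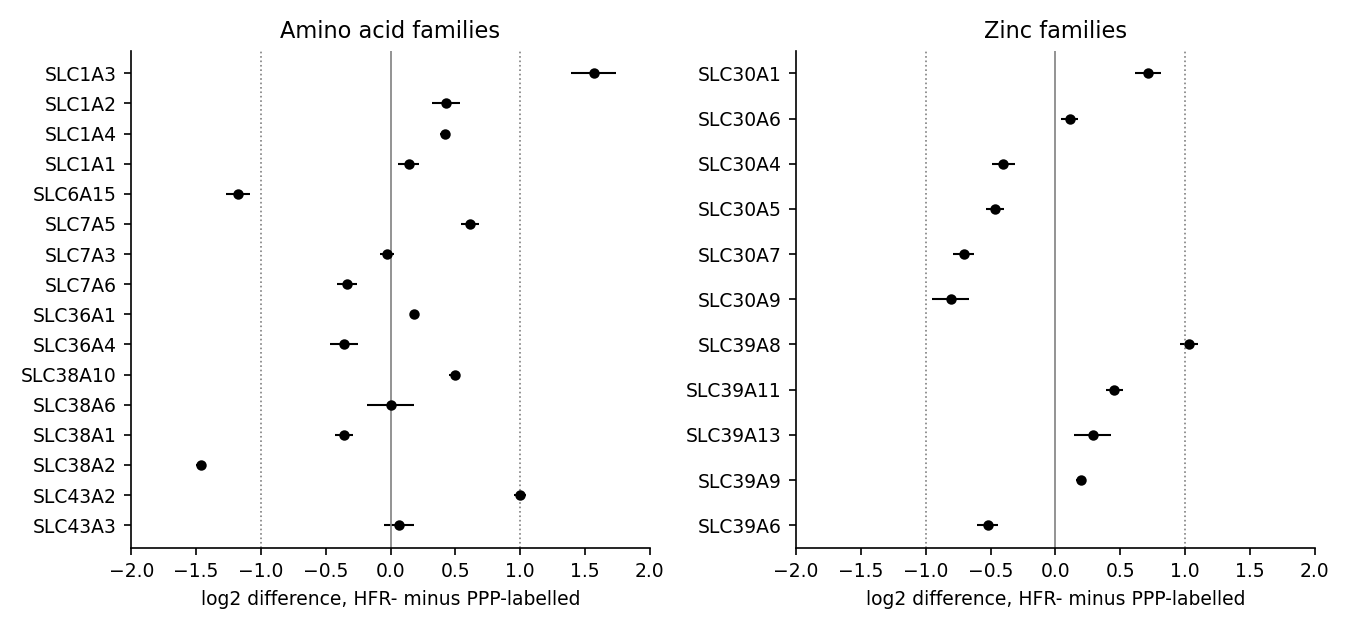
Log2 difference (HFR-labelled minus PPP-labelled array) of the 16 amino acid carrier genes and the 11 zinc carrier genes past the level filter, with bars of 1 model standard error and dotted lines at 2-fold. The 4 SLC1 genes lie above 0, SLC6A15 and SLC38A2 lie beyond 2-fold below it, and SLC30A1 and SLC39A8 are the highest of their zinc families.

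Zinc carriers had 11 of 18 genes past the filter. Of 5 passing SLC39 importers 4 lay above 0, with a median of 0.29, and of 6 passing SLC30 exporters 4 lay below 0, with a median of -0.43. Of all 7389 passing genes, 3338 lay above 0 and 4046 below. The 2 family medians kept their signs with median centring and quantile normalization, which moved the median of all genes by only -0.06 and -0.003. With the poly-A control RNAs set equal the SLC39 and SLC30 medians were 1.78 and 1.06. SLC39A8 (ZIP8), which carries zinc and manganese, was the 1 zinc gene at 2-fold, at 183.6 ± 3.7 MBEI on the HFR-labelled array against 89.9 ± 3.7 on the PPP-labelled array, 2.04-fold higher. SLC39A9 had 2085.4 ± 32.4 and 1820.6 ± 41.1 MBEI, a log2 difference of 0.20, but its second passing probe set, at 96.1 ± 6.3 and 158.6 ± 5 MBEI, stood at -0.72. With the median over its probe sets, -0.26, SLC39A9 joins SLC39A6 below 0. SLC39A6 (ZIP6), known from gastrulating zebrafish embryos, had 75.7 ± 3.4 (marginal) and 108.8 ± 4.0 MBEI, a fold of at least 1.44 toward the PPP-labelled array, and SLC39A10 was absent on both.

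The plasma membrane exporter SLC30A1 (ZnT1) had the highest log2 difference of the SLC30 genes, at 387.5 ± 10.8 MBEI on the HFR-labelled array against 236.3 ± 14.8 on the PPP-labelled array, a difference of 0.71. Its second passing probe set read 164.8 ± 6.1 and 167.6 ± 4.7 MBEI, a difference of -0.02, so the median over both was 0.34. The SLC30 genes below 0 were SLC30A4, SLC30A5, SLC30A7 and SLC30A9, between -0.81 and -0.40, whose products serve compartments inside the cell. SLC30A5 had 1101.0 ± 33.7 and 1517.7 ± 56.3 MBEI. SLC30A6, the partner of SLC30A5 in the secretory pathway, had a difference of 0.11. Metallothioneins, which bind zinc and whose genes respond to it together with that of ZnT1, read higher on the HFR-labelled array: MT4 had 4529.6 ± 66.8 against 1632.2 ± 139.8 MBEI, 2.78-fold, and MT3 had 486.9 ± 2.4 against 105.6 ± 4.5 MBEI, 4.61-fold. MTF1, the zinc-sensing transcription factor of these genes, had 760.8 ± 24.4 and 685.0 ± 15.7 MBEI, a log2 difference of 0.15.

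Of the carriers of other metals 4 of 7 passed. SLC31A1 (CTR1), the high-affinity copper importer, read 2107.3 ± 68.3 MBEI on the HFR-labelled array against 911.5 ± 31.2 on the PPP-labelled array, 2.31-fold higher. All 6 of its probe sets passed and lay above 0, between 0.42 and 1.21. The magnesium carrier family SLC41 had 3 passing genes between -0.46 and 0.30, SLC41A3 at 382.8 ± 18 and 311.0 ± 14.4 MBEI among them. The iron exporter SLC40A1 (ferroportin) did not pass, at 23.9 ± 1.9 (absent) and 20.9 ± 2.9 MBEI. The transferrin receptor TFRC, which brings in iron, had a log2 difference of -0.39, and ferritin FTH1 of -0.02.

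Of the phosphate and sulfate carriers 2 of 9 passed, and they lay on opposite sides of 0. SLC34A2, the sodium-driven phosphate carrier of gut and lung epithelium, read 425.4 ± 70.7 MBEI on the HFR-labelled array against 58.9 ± 1.9 on the PPP-labelled array, 7.22-fold higher. Its second probe set read 201.8 ± 65.9 and 51.9 ± 4.0 (absent), a fold of at least 3.89, and both HFR-labelled values carried wide model errors. SLC20A2, a phosphate carrier of most tissues, had 105.7 ± 8.3 and 166.3 ± 8.4 MBEI, a difference of -0.65.

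Carriers of bicarbonate, protons and chloride passed in 10 of 36 genes, and 8 of the 10 lay below 0. Among all passing genes, 4046 of 7389 did. For 7 of the 10 the difference exceeded 2 model standard errors, and the others were all among those below 0. The count below 0 was also 8 with median centring and quantile normalization, which moved the median of all genes by only -0.06 and -0.003. All 10 lay above 0 with the poly-A control RNAs set equal. SLC12A3, the sodium chloride cotransporter of the kidney, was the 1 gene at 2-fold, at 187.7 ± 8.1 MBEI on the HFR-labelled array against 64.1 ± 5.0 on the PPP-labelled array, 2.93-fold higher. Its other 2 probe sets were absent on both arrays, and with the suffix types s, x and a left out its log2 difference was -0.08. All 3 passing SLC9 sodium and proton exchangers lay below 0, with differences between -0.88 and -0.49. SLC9A8, an exchanger of internal membranes, had 334.3 ± 12.6 and 613.6 ± 25.5 MBEI. The potassium chloride exporters SLC12A4 and SLC12A7 also lay below 0, at -0.32 and -0.76. The bicarbonate importer SLC4A7 had 1229.5 ± 26.3 and 1287.6 ± 30.6 MBEI, a difference of -0.07, and SLC26A11 had 572.3 ± 6.5 and 416.1 ± 17.2 MBEI, a difference of 0.46. SLC4A1 (band 3), the anion exchanger of red cells, was absent on both arrays.

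**Figure D4:**
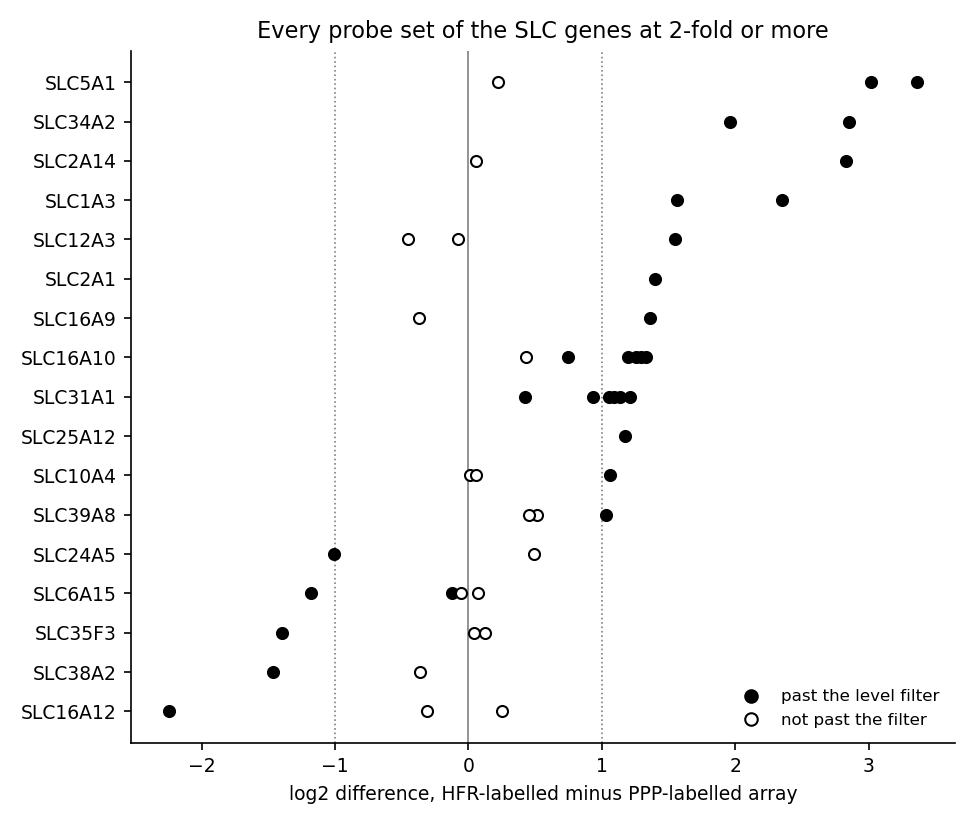
Log2 difference of every probe set of the 17 solute carrier genes at 2-fold or more, filled where the probe set passed the level filter and open where it did not. Where several probe sets of a gene passed, all lie on the same side of 0, while most probe sets that did not pass lie near 0.

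The differences rested on few probe sets. Of the 17 genes at 2-fold or more, 6 had several passing probe sets, all on the same side of 0 within each gene, and for 3 of the 6 each passing probe set was itself at 2-fold. The other 11 rested on 1 passing probe set, 2 of them as their only probe set on the array. Among all 48 solute carrier genes with several passing probe sets 66.7% had them on the same side, against 63.2% of such genes on the array. No such share was taken over all genes at 2-fold, so the agreement in the 6 genes stands without a background. Of the 149 genes that did not pass, 132 were not called present on either array with the probe set that stood for them. A further probe set passed for 10 of the 149, and none of the 10 reached 2-fold. Over single probe sets, 27 of the 196 that passed (13.8%) were at 2-fold or more, against 8.94% of all passing probe sets. The latter include probe sets with no symbol or several. Some of the 27 share a gene, so this count is not independent of the gene count. Just inside the threshold were SLC24A5 at -1.01, SLC39A8 at 1.03 and SLC10A4 at 1.06, and just outside it SLC43A2, whose fold was 1.999, and SLC25A29 at -0.92.

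Mitochondrial carriers of family SLC25 passed more often than all genes, and their differences were about as wide. Of 33 genes 25 passed (75.8%), against 56.8% of all genes. Of the 25, 19 (76.0%) lay within 1.5-fold, against 77.5% of all genes, and 1 (4%) reached 2-fold, against 8.11%. Their median log2 difference was -0.14, and the interquartile range 0.57, against -0.05 and 0.59 for all genes. For SLC25 and SLC35 together, 79.5% of 39 passing genes lay within 1.5-fold and 5.13% reached 2-fold. In the other families 64.2% of 81 passing genes lay within 1.5-fold and 18.5% reached 2-fold. Those families also hold carriers of internal membranes, such as SLC2A8, SLC9A8 and SLC30A5, so the split is by family and not by membrane. That contrast has no test, since 1 array stood for each group, and all genes were at 77.5% and 8.11%.

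**Figure D5:**
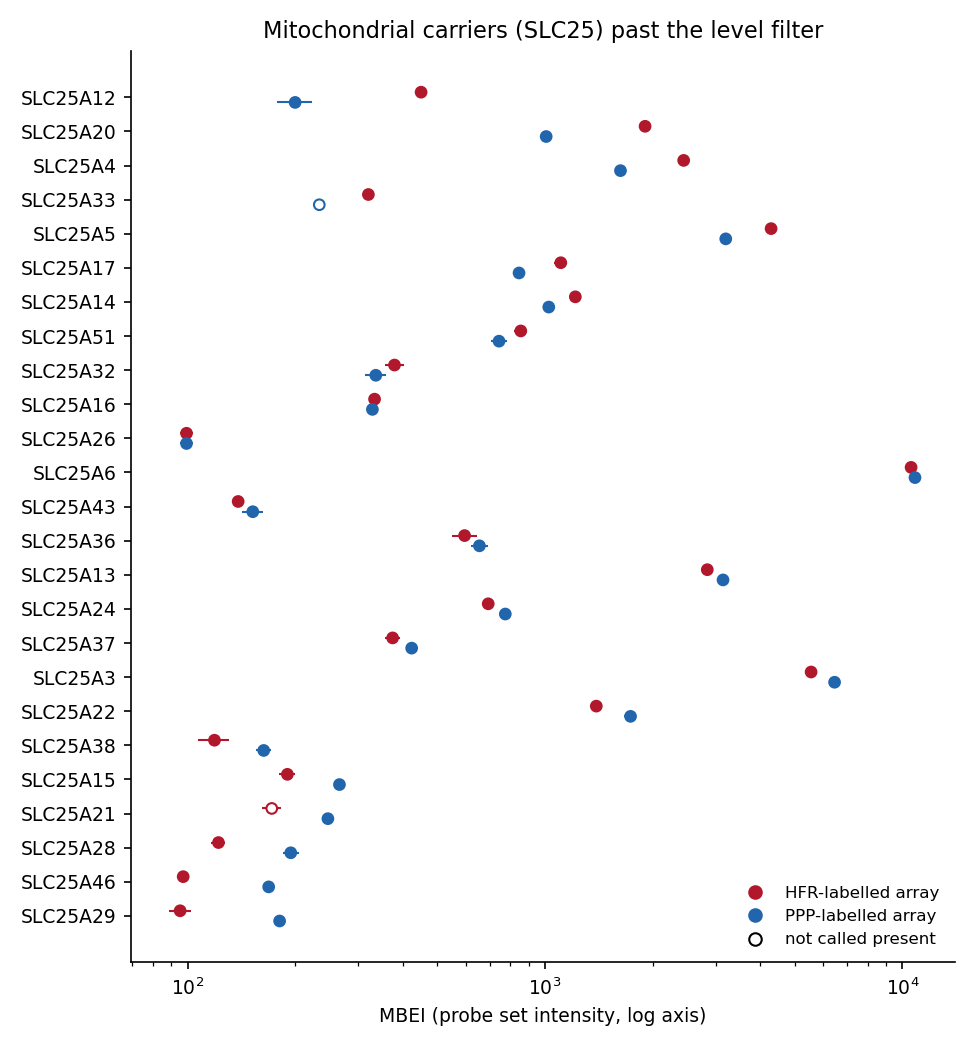
MBEI (log axis) of the 25 SLC25 genes past the level filter, sorted by log2 difference, with the HFR-labelled array in red above the PPP-labelled array in blue, bars of 1 model standard error and open circles where not called present. The pairs lie close together for most genes, and SLC25A12 at the top is the 1 gene at 2-fold.

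SLC25A12 (aralar), an aspartate and glutamate carrier of the malate-aspartate shuttle, read 450.1 ± 18.5 MBEI on the HFR-labelled array against 199.9 ± 22.4 on the PPP-labelled array, 2.25-fold higher, from its only probe set. Its paralog SLC25A13 (citrin) had 2845.0 ± 115.8 and 3148.7 ± 56.7 MBEI, a log2 difference of -0.15, with its other passing probe sets at 0.19 and -0.21. SLC25A20, which brings acylcarnitines to fatty acid oxidation, had 1905.6 ± 50.7 and 1007.6 ± 39.7 MBEI, a difference of 0.92, but -0.36 on its second passing probe set. The ADP and ATP exchangers read as follows on the probe sets that stood for them. SLC25A4 had 2443.3 ± 36.9 and 1626.3 ± 26 MBEI (0.59), SLC25A5 had 4291.5 ± 149.0 and 3204.4 ± 69.7 MBEI (0.42), and SLC25A6 had 10575.9 ± 150.3 and 10844.7 ± 164.3 MBEI (-0.04). The 2 passing probe sets of SLC25A6 disagreed, the other at 3337.1 ± 163 and 1744.7 ± 88.7 MBEI with a difference of 0.94. SLC25A4 rested on 1 passing probe set of suffix type s, and without that type its difference was 0.12, from a probe set of 84.9 ± 4.3 (absent) and 78.2 ± 2.1 MBEI.

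The phosphate carrier SLC25A3 had 5553.5 ± 150.2 MBEI on the HFR-labelled array against 6459.6 ± 188.1 on the PPP-labelled array, a log2 difference of -0.22. Both mitoferrins, the iron importers of mitochondria, lay below 0, SLC25A37 at -0.18 and SLC25A28 at -0.67, although a second passing probe set of SLC25A37 stood at 0.51. The ornithine carrier SLC25A15, the basic amino acid carrier SLC25A29 and the glycine carrier SLC25A38 had differences of -0.48, -0.92 and -0.46, and the glutamate carrier SLC25A22 had -0.32.

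Nucleotide sugar carriers of family SLC35, which feed glycosylation in the Golgi and endoplasmic reticulum, passed in 14 of 21 genes, of which 10 lay below 0. Among all passing genes, 4046 of 7389 did. The SLC35 median was -0.18. It was below 0 with median centring and quantile normalization, which moved the median of all genes by only -0.06 and -0.003. With the poly-A control RNAs set equal the SLC35 median was 1.31. SLC35F3, a thiamine carrier in mammals, was the 1 member at 2-fold, at 76.5 ± 4.4 MBEI on the HFR-labelled array against 201.7 ± 3.1 on the PPP-labelled array, 2.64-fold higher on the array labelled PPP. Its other 2 probe sets did not pass and stood at 0.04 and 0.12. The CMP-sialic acid carrier SLC35A1 had 399.8 ± 17.9 and 658.7 ± 16.1 MBEI, a log2 difference of -0.72. SLC35E3 had 5255.5 ± 223.6 and 5313.5 ± 125.5 MBEI (-0.02), with a second passing probe set at 0.29, and SLC35F1 had 725.2 ± 33 and 693.2 ± 24.1 MBEI (0.07). The acetyl-CoA carrier SLC33A1 had a difference of -0.37, and the dimmest of its 3 passing probe sets, at 58.0 and 145.7 MBEI, had -1.33.

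The remaining groups held 2 genes at 2-fold. SLC10A4, a relative of the bile acid carriers found in synaptic vesicles, read 1129.6 ± 12.9 MBEI on the HFR-labelled array against 541.7 ± 28.7 on the PPP-labelled array, 2.09-fold higher, while its other 2 probe sets were absent on both arrays. SLC10A7 had a log2 difference of -0.29. SLC24A5, a potassium-dependent sodium and calcium exchanger of pigment cells, read 42.1 ± 10.8 MBEI on the HFR-labelled array against 84.8 ± 5.8 on the PPP-labelled array, 2.01-fold higher on the PPP-labelled array, with a model error of 0.38 on the log2 scale. The mitochondrial exchanger SLC8B1 had 89.3 ± 9.1 and 74.4 ± 6.7 MBEI (marginal).

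Carriers of vitamins, nucleosides and fatty acids had no gene at 2-fold among the 12 that passed, and all 12 lay within 1.5-fold. Of all passing genes 77.5% lay within 1.5-fold and 8.11% reached 2-fold. The group of organic ion and vesicular carriers also had 0 of 5 passing genes at 2-fold, and 3 of the 5 lay within 1.5-fold. The folate carrier SLC19A1 had 1426.0 ± 31.2 MBEI on the HFR-labelled array against 1560.8 ± 48.9 on the PPP-labelled array, a log2 difference of -0.13, and the choline carrier SLC44A1 had 0.05. The nucleoside carriers SLC29A1 and SLC29A3 had -0.18 and 0.31, and the fatty acid carriers SLC27A2 and SLC27A4 had -0.09 and 0.24, with a second passing probe set of SLC27A4 at -0.14. Among carriers of organic ions, the carnitine importer SLC22A5 had 848.4 ± 20.5 and 1148.9 ± 17.5 MBEI (-0.44), and the polyamine carrier SLC18B1 had 1545.8 ± 47.1 and 921.4 ± 49.5 MBEI (0.75). The peptide carrier SLC15A1 (PEPT1) of the gut had 43 ± 4.4 (absent) and 81.4 ± 5.3 MBEI, a fold of at least 1.89 toward the PPP-labelled array. The heme carrier SLC48A1 and SLC45A4 had differences of 0.36 and 0.38.

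Of the 34 genes listed beside these carriers, among them partners, regulators and metal-binding genes, 21 had a probe set under their single symbol and 17 passed. The 4 at 2-fold or more, EMB, HK1, MT3 and MT4, were all higher on the HFR-labelled array. They made up 23.5% of the 17, where 3.86% of all passing genes were higher by 2-fold or more on that array. The list was chosen with earlier results of these data known, so the 2 shares are a description only. The median log2 difference of the 17 was 0.02. The sodium hydrogen exchanger scaffold SLC9A3R1, which is no carrier, had 0.65.

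Genes were named by a rule that takes every gene at 2-fold or more, the members of each group with the highest mean log2 MBEI, an order of probe set brightness and not of expression, and a list of well-known carriers. Outside that rule, SLC2A8, SLC2A10, SLC2A13, SLC7A3, SLC7A6, SLC9A8, SLC12A4, SLC12A7, SLC25A5, SLC25A13, SLC25A15, SLC25A20, SLC25A22, SLC25A28, SLC25A29, SLC25A37, SLC25A38, SLC30A4, SLC30A6, SLC30A7, SLC30A9, SLC33A1, SLC35A1 and SLC43A2 were chosen after their values were seen.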

How the data were processed

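Each of 2 chick embryo tissues gave total RNA for 1 GeneChip Chicken Genome array. The intensity values are model-based expression indexes deposited by the authors, a linear scale, and per the file headers each comes with a detection call and a model standard error. Per the authors' design text, the arrays were normalized with an invariant set and the model was fitted on perfect-match probes of 6 arrays, 4 of them from another study. The submitters' processing notes list GCOS 1.3, and the sources used here do not name the software of the model fit. The 12 columns of the other 4 arrays belong to no sample here and were not used. The series value table held the same value for 38535 of 38535 probe sets.

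Probe sets were named through the platform annotation, with symbols updated through gene IDs in RefSeq (GRCg7b), where 612 of the 619 member probe sets matched. No coordinates or sequences are given, since no build or sequence was used here. The probe set of highest mean log2 MBEI stood for a gene. Log2 differences, their errors from the model errors, and folds were computed in Python 3.11.15 with numpy 2.4.6 and pandas 2.3.3, and the script was tested on simulated data. The simulation raised and lowered only bright genes and gave both arrays the same calls. It therefore did not cover changes in dim genes or folds written as at least. The fold of a gene whose dimmer reading was not present was taken against the higher of that reading and the lowest present MBEI of the array, 6.5 for HFR and 4.8 for PPP. The genes named are those at 2-fold or more, the 2 brightest passing genes of each transport group, and a list of carriers named whatever their values, of which SLC2A3, SLC1A5 and SLC3A2 have no probe set under those symbols. Probe sets with suffixes s, x and a can bind related transcripts, so paralogs may share signal. Alternatives were median centring, quantile normalization, poly-A control RNAs set equal, 16 MBEI added before log2, other level filters, other probe set rules, symbols as annotated, and thresholds of 1.5-fold and 4-fold. The members, lists and tests were chosen with earlier results of these data known. All differences are between 2 arrays, not between replicated tissues.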

Additional observations from a re-analysis of the deposited data

How the results depend on the processing

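No paired analysis was possible because each tissue has 1 array, and no array could be left out for the same reason. The counts of 12 genes higher on the HFR-labelled array and 5 higher on the PPP-labelled array, and the median of -0.02, were 98, 0 and 1.46 with the poly-A control RNAs set equal. At 1.5-fold the counts were 19 and 18, and at 4-fold 3 and 1. Within 1.5-fold lay 69.2% of the 120 genes and 77.5% of all passing genes, and counts over all genes at 4-fold are not given here. The median was 0.13 with no level filter and 0.084 with the filter at the 75th percentile, where that of all genes was 0.055 and -0.041. Under the other alternatives run, the counts were 9 to 13 and 4 to 5. With the poly-A control RNAs set equal, SLC24A5 (0.48), SLC35F3 (0.090), SLC38A2 (0.024) and SLC6A15 (0.31) changed sign among the genes at 2-fold or more. This follows from adding 1.49 to every difference. Genes below 0 and under 2-fold changed sign too, such as SLC15A1, from -0.92 to 0.57. SLC12A3 was at -0.080 with the suffix types s, x and a left out, which leaves it a probe set absent on both arrays. Outside the poly-A setting, 164 of 165 values of the 17 genes kept their sign and 159 stayed at 2-fold or more. The exceptions under 2-fold were SLC12A3, SLC31A1 (0.93 with those types left out), SLC6A15 (-0.65 as a median over probe sets), SLC24A5 (-0.79 with 16 MBEI added) and SLC39A8 (0.91 with 16 MBEI added and 0.97 with median centring). Much of the count of 164 was fixed in advance. Other level filters can drop a gene but not change its value. The highest passing probe set is already the representative of each gene at 2-fold. The median over passing probe sets cannot differ for the 11 genes with 1 such probe set. The highest passing probe set as a gene's representative was an alternative chosen after seeing the data. For the 132 genes whose representative probe set was not called present on either array, that probe set limits what could be seen. As medians over passing probe sets, SLC39A9 was at -0.26, SLC30A1 at 0.34 and SLC25A6 at 0.45.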
